A study of Mus musculus with 6 samples.

Results

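The genes that encode the proteins of the cytosolic ribosome were followed in mouse B-cell acute lymphoblastic leukaemia cells exposed to DHA, or dihydroartemisinin, the compound into which artemisinin antimalarials are converted in the body. A probe set was taken where the platform annotation gave it 1 gene symbol and that symbol began with Rpl or Rps and a digit, or was Rplp0, Rplp1, Rplp2 or Rpsa. Symbols containing -ps (pseudogenes) or beginning with Rps6k (ribosomal S6 kinases) were left out. This gave 110 probe sets for 69 of the 22180 named genes, 42 of the large subunit and 27 of the small, and each gene was represented by its brightest probe set (6-array mean). Of these 69 genes, 67 passed the filter on dim probe sets, and the testis paralog Rpl10l and the copy Rpl32l (means of 3.37 and 3.29 on the log2 scale) did not. The prefix also took in 11 genes that are not part of the standard ribosome, namely paralogs, retrocopies and genes that only share the prefix, which left 58 genes for the ribosome itself.

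All 6 samples were BCR-ABL-positive B-ALL cells, 3 given the vehicle dimethyl sulphoxide (DMSO) and 3 given 312 nM DHA for 4 h. BCR-ABL is the fused tyrosine kinase that drives this leukaemia, and the growth protocol names cells with its p185 form, with or without the T315I change and lacking Arf or p53, without saying which were on these arrays. The treatment protocol gives the same time for both groups, the extraction protocol also names a shorter one, and no time stands in the titles of the vehicle samples. Biotin-labelled cRNA was hybridised to Affymetrix arrays, and the deposited values are log2 intensities. Whether each sample was a culture of its own is not stated in the labels, and p-values therefore reflect only how far these samples differ among themselves, and that spread may be technical. Array medians lay between 5.25 and 5.31, and correlations between arrays between 0.9925 and 0.9947. Of the B-cell precursor markers, 13 of 13 on the array passed the filter, among them Cd79a (12.71), Igll1 (12.98) and Pax5 (10.90), whereas Vpreb1 (4.78) lay close to the filter level of 4.52. Markers of T and NK cells averaged 4.99 to 5.09 with vehicle and 5.02 to 5.13 with DHA over the 4 of 8 that passed, and those of myeloid cells 4.75 to 4.89 and 4.81 to 4.91 over 5 of 9. Erythroid and megakaryocyte markers (2 of 3 passed) averaged 5.34 to 5.37 with vehicle and 5.37 to 5.46 with DHA, groups that met without overlapping. Stromal and endothelial markers (6 of 6) averaged 6.09 to 6.14 and 6.12 to 6.20, with Pecam1 at 9.43 and Col1a1 at 6.30. Limma called none of these markers, and their part in the results was not tested.

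The ribosome is made of a large subunit, which forms peptide bonds and holds the exit tunnel, and a small subunit, which reads the messenger RNA. Most of its proteins are needed in equal numbers, and their mRNAs are among the most abundant in dividing cells. Most of these mRNAs begin with a terminal oligopyrimidine (TOP) tract, a C followed by a run of C and T. Through this tract the kinase mTORC1 and the RNA-binding protein LARP1 set how much of each mRNA is translated, which a measurement of RNA levels does not see. Ribosomal proteins left outside a ribosome are degraded, and a few of them bind the p53 inhibitor MDM2.

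The annotated starts of these genes were searched for such a tract, which the selection by symbol did not use. RefSeq (build GRCm38.p6) gave a promoter sequence for 54 of the 69 genes. Windows from 10 bases before to 20 bases after the annotated start are printed here. They cover 6 genes with a run of at least 8 C or T bases. Such a run did not have to begin with C or at the start itself. The other 5 genes are among those with the smallest p in the comparison below. Rpl34 (at its downstream start) and Rps18, also among the genes with the smallest p, had runs of C and T of 13 and 11 bases. Rpl6 and Rpl26 of the same genes had 6 and 3, and these windows are not printed. In the printed windows the longest run of C and T is in capitals.
Rpl27a (chr7:109519185-109519214, + strand): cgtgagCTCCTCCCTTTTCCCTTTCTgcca
Rpl35 (chr2:39005112-39005141, - strand): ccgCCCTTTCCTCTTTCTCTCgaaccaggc
Rpl7a (chr2:26910797-26910826, + strand): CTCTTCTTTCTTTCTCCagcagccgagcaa
Rps26 (chr10:128626487-128626516, - strand): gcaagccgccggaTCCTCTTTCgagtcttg
Rps6 (chr4:86857348-86857377, - strand): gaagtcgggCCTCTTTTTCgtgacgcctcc
Rplp2 (chr7:141447641-141447670, + strand): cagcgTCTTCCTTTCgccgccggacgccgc
Rps23 (chr13:90923112-90923141, + strand): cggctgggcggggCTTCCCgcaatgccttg
Rps16 (chr7:28350679-28350708, + strand): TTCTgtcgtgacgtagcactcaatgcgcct
Rpl11 (chr4:136053374-136053403, - strand): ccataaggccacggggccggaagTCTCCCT
Rps27l, upstream start (chr9:66946076-66946105, + strand): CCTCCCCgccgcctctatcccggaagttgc
Rpl10a, upstream start (chr17:28328461-28328490, + strand): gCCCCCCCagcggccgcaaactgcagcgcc

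A run of at least 8 C or T bases lay in this window on the sense strand in 22 of the 54 genes (40.7%), against 13.0% of all 27025 genes with a promoter sequence. The letters CTTTC stood in the same window on the sense strand in 22.2% of the members and 4.43% of all genes. In the whole promoter sequence of 300 bases, searched on both strands, CCGGAAG, the core bound by ETS factors, was found in 42.6% of members and 9.93% of all genes, and TATAAA in 11.1% and 15.7%. Annotated starts can be several bases off, so a gene without a run here may still have one. The 21 tested members with a run of at least 8 had a median log2 difference of 0.0039 (from -0.19 to 0.13), and the 31 without one a median of -0.0073 (from -0.37 to 0.11).

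After 4 h of DHA, no ribosomal protein gene passed the test. Limma called 0 of the 67 tested members (Benjamini-Hochberg adjusted p of 0.05 or less), against 0.0902% of the 15526 genes tested, 0.0837% higher and 0.00644% lower, and the lowest adjusted p of a member was 0.386. In a bulk sample, a shift in the mix of cells and a shift in RNA per cell cannot be told apart. At an unadjusted p under 0.05 there were 3 members, each lower after DHA, against 6.08% of all genes lower, 5.94% higher and 12% in either direction. The median log2 difference of the members was -0.00050, with 33 higher and 34 lower, and that of all tested genes was 0.0027. Differences ran from -0.37 (Rps16) to 0.13 (Rps18). The 95% intervals, unadjusted for the number of genes, lay wholly within 0.25 of no difference for 44 of the 67 members (65.7%, against 52.5% of all tested genes) and within 0.5 for 62 (92.5%, against 94.0%). A change in intensity larger than these bounds of 0.25 and 0.5 is therefore outside the interval for most members. Smaller ones could not be told from none with 3 arrays per group. The brightest members lay near the top of the scale, with Rps6 at a mean of 13.16 where the highest value on any array was 13.56. Whether intensity there still follows RNA was not tested, so these intervals do not bound the change in RNA.

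**Figure D1:**
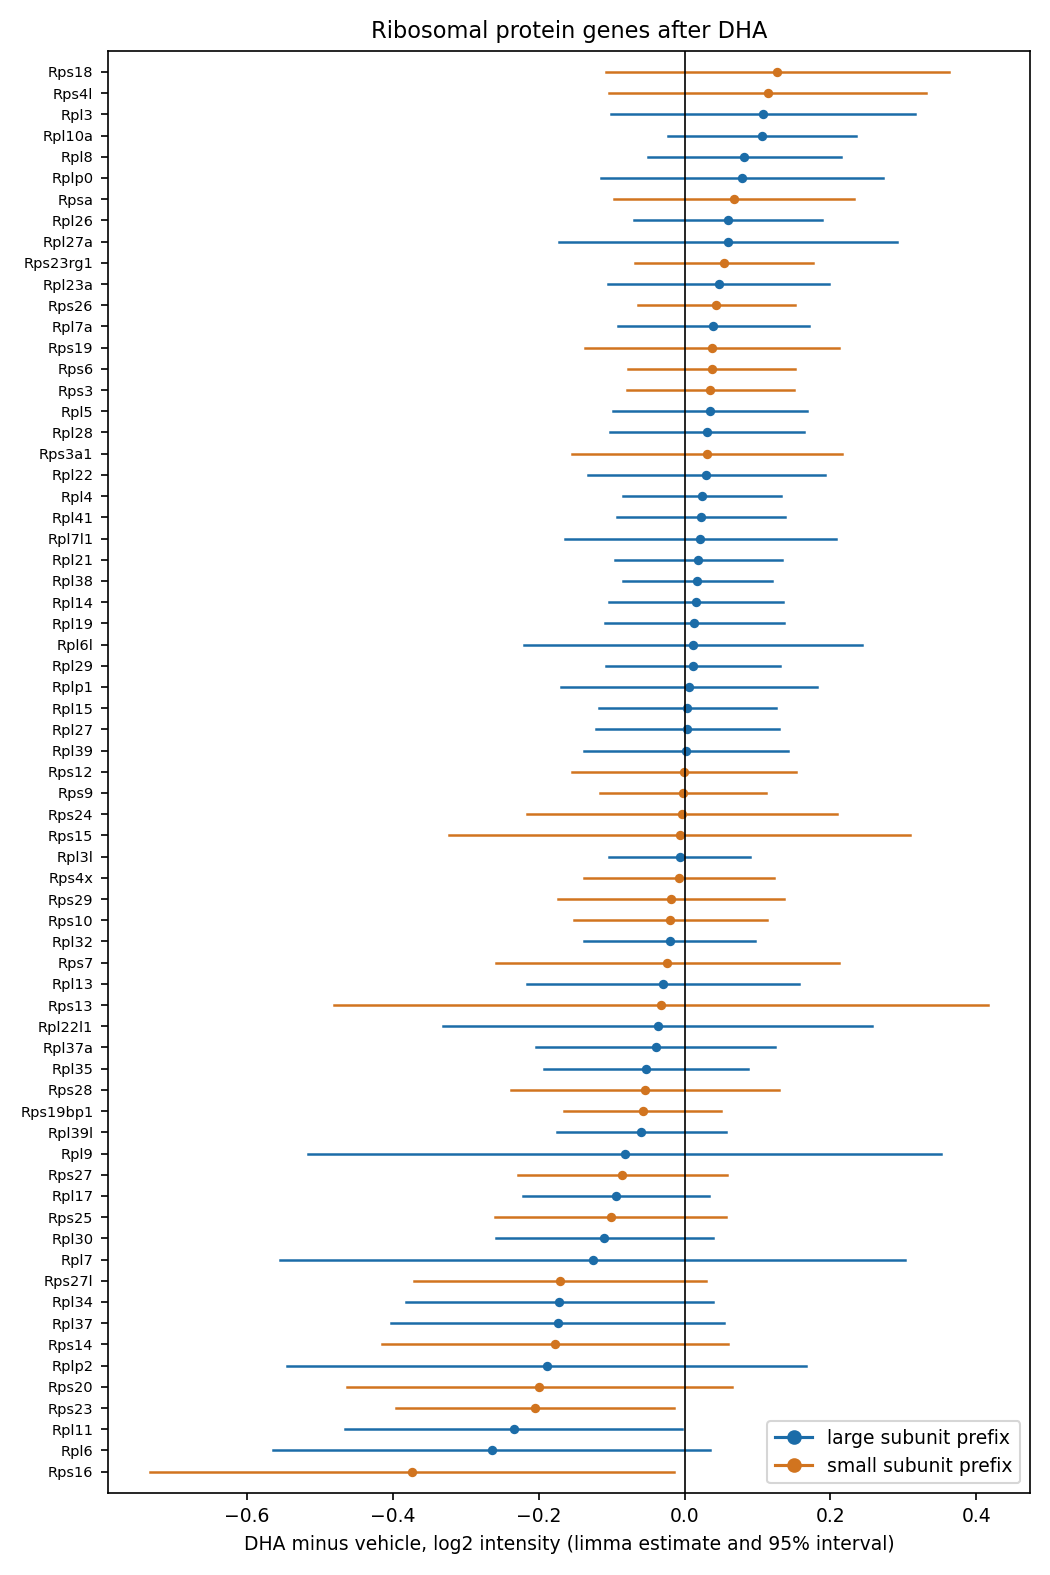
Difference between DHA and vehicle on the log2 scale for the 67 tested ribosomal protein genes, in order of size, with limma's 95% interval as a line and the prefix of each subunit by colour (3 arrays per group). Intervals of all but 3 genes cross 0, the 3 lie below it, and none passed the adjusted test.

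Of the proteins that carry the reactions of translation, Rps6, the small subunit protein phosphorylated by S6 kinase below mTORC1, measured 13.17, 13.17 and 13.08 with vehicle and 13.20, 13.16 and 13.17 with DHA. The groups overlapped, and the difference was 0.037 (SE 0.048, 95% interval -0.078 to 0.15; limma adjusted p = 0.798). Near the peptidyl transferase centre of the large subunit, Rpl3 had a difference of 0.11 and Rpl8 of 0.082, and Rpl10 was not analysed here. Rpl8 measured 11.68, 11.65 and 11.53 with vehicle and 11.72, 11.66 and 11.72 with DHA (SE 0.055; limma adjusted p = 0.602), so that 1 DHA array lay inside the vehicle range. At the polypeptide exit tunnel, 7 members were tested (Rpl4, Rpl17, Rpl19, Rpl23a, Rpl26, Rpl35 and Rpl39), none passed, 5 were higher and 2 lower, and each interval lay within 0.25 of no difference. At the decoding site and mRNA channel, 6 were tested, 3 higher and 3 lower, with differences from -0.21 (Rps23) to 0.13 (Rps18). Rps3 (0.035), Rps26 (0.043) and Rps9 (-0.0019) of that list had a standard error under 0.05.

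The stalk of the large subunit, formed by Rplp0, Rplp1 and Rplp2, recruits translation factors and can activate the eIF2α kinase GCN2. Its 3 genes did not pass. Rplp0 measured 11.65, 11.39 and 11.43 with vehicle and 11.66, 11.55 and 11.50 with DHA, a difference of 0.079 (SE 0.081; limma adjusted p = 0.737). Rplp1 had a difference of 0.0058 (SE 0.074). Rplp2 measured 6.03, 6.12 and 6.34 with vehicle and 6.03, 6.22 and 5.67 with DHA, where DHA replicate 3 alone lay below the others, and its interval ran from -0.54 to 0.17. Rpl12 of the stalk base was not analysed here.

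Rpl5 and Rpl11 join the smallest ribosomal RNA in a complex that binds MDM2 when it is not built into ribosomes. Rpl5 measured 6.35, 6.45 and 6.40 with vehicle and 6.44, 6.50 and 6.36 with DHA (difference 0.035, SE 0.056). Rpl11 measured 5.94, 5.91 and 6.19 with vehicle and 5.68, 5.93 and 5.74 with DHA. DHA replicates 1 and 3 lay below the vehicle range and replicate 2 inside it, with a difference of -0.23 (SE 0.097; limma unadjusted p = 0.0473, adjusted p = 0.407). Of the genes mutated in Diamond-Blackfan anaemia, an inherited failure of red cell production, 7 of 9 listed were tested, 3 were higher and 4 lower, and the median was -0.0040. Rps19, the gene most often mutated in it, had a difference of 0.038 (SE 0.073). Rpsa, the small subunit protein also known as the laminin receptor precursor, had 0.068 (SE 0.069). Rps27a, made as a fusion with ubiquitin, was not analysed here.

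The members with the smallest p among those lower after DHA were Rps23, Rps16, Rpl11, Rpl6, Rps27l and Rpl34. Rps23, which contacts the decoding centre, measured 7.65, 7.76 and 7.73 with vehicle and 7.39, 7.46 and 7.67 with DHA. DHA replicate 3 overlapped the vehicle range, and the difference was -0.21 (SE 0.080, 95% interval -0.40 to -0.014; limma adjusted p = 0.386). Rps16, whose tail reaches the peptidyl tRNA, measured 5.75, 5.55 and 5.68 with vehicle and 4.96, 5.32 and 5.58 with DHA. Its DHA arrays spread further than its vehicle arrays (SD 0.31 and 0.099), and the adjusted p was 0.397 by limma (difference -0.37, SE 0.15). Rpl6, a protein of the outer face of the large subunit, measured 7.30, 7.38 and 7.62 with vehicle and 6.93, 7.26 and 7.32 with DHA. Its groups overlapped by DHA replicate 3 (limma adjusted p = 0.470). The probe set of its copy Rpl6l was brighter, with means of 11.60 with vehicle and 11.62 with DHA, a difference of 0.012. Whether that probe set also takes up Rpl6 signal was not tested. Rpl34 measured 9.52, 9.38 and 9.39 with vehicle and 9.30, 9.39 and 9.08 with DHA, a difference of -0.17 (SE 0.088; limma adjusted p = 0.501).

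Those with the smallest p among the higher members were Rpl10a, Rpl8, Rps18, Rps4l, Rpl3 and Rpl26. Rpl10a, a protein of the flexible L1 stalk at the tRNA exit side, measured 12.22, 12.13 and 12.14 with vehicle and 12.34, 12.26 and 12.21 with DHA. DHA replicate 3 lay just below the highest vehicle array, and the difference was 0.11 (SE 0.054, 95% interval -0.023 to 0.24; limma adjusted p = 0.496). Rps18, a protein of the head of the small subunit, measured 8.57, 8.31 and 8.40 with vehicle and 8.73, 8.44 and 8.50 with DHA. Only DHA replicate 1 stood above the vehicle range (difference 0.13, SE 0.099; limma adjusted p = 0.655). Rpl3 measured 11.73, 11.54 and 11.42 with vehicle and 11.75, 11.59 and 11.68 with DHA (SE 0.088), and Rpl26, at the exit tunnel, measured 6.71, 6.69 and 6.58 with vehicle and 6.76, 6.73 and 6.67 with DHA (difference 0.060, SE 0.054). For both genes the arrays of the 2 groups interleaved.

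**Figure D2:**
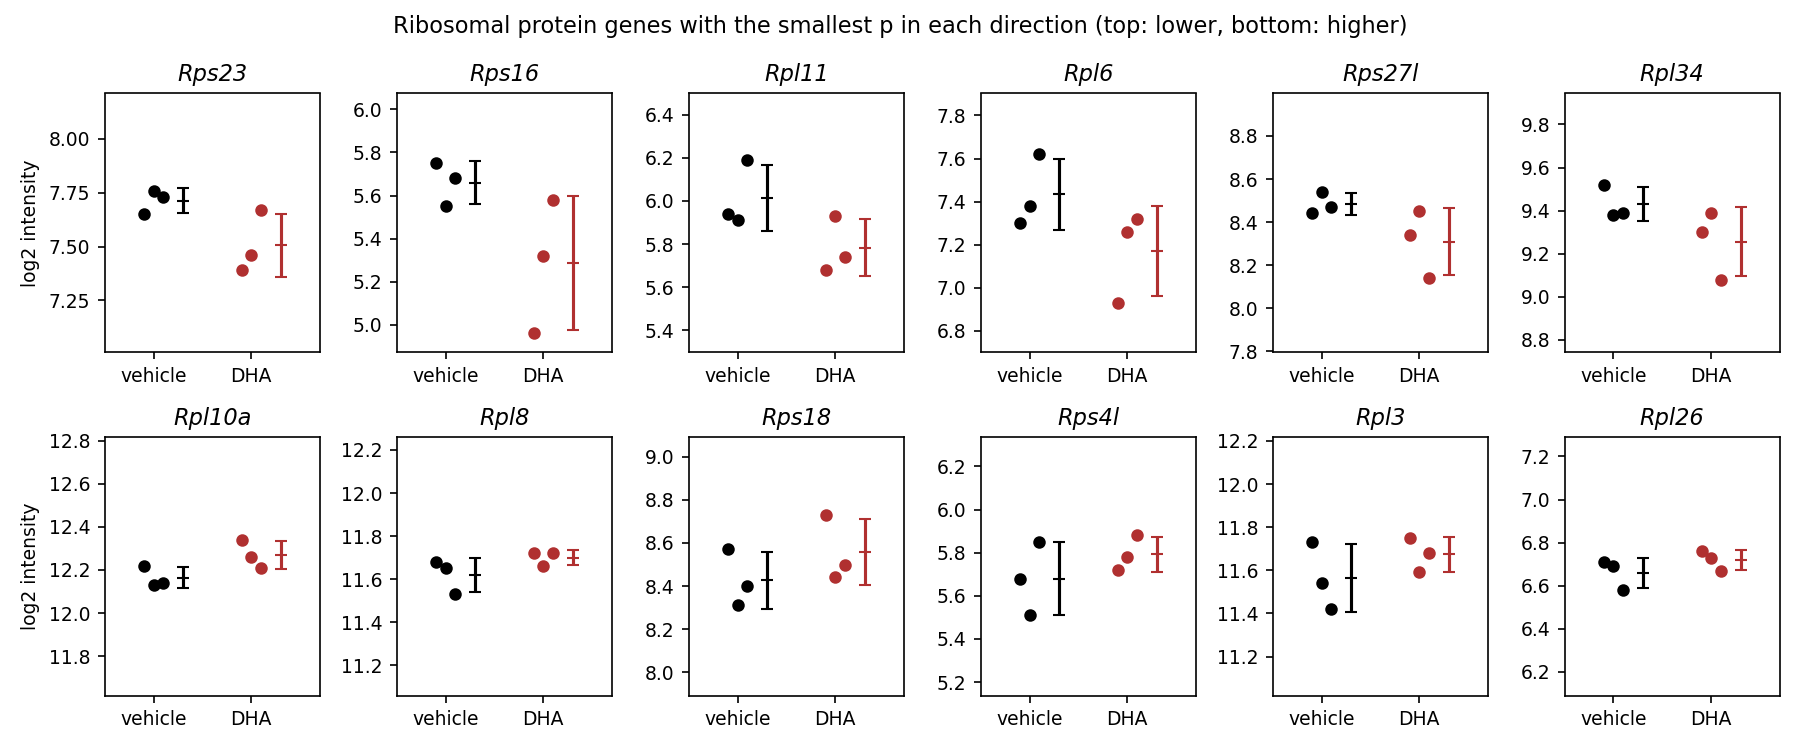
Log2 intensity of the 6 lower (top) and 6 higher (bottom) ribosomal protein genes with the smallest p, with each array as a point and the mean ± SD beside it (3 arrays per group). Every panel spans the same range of 1.2 on the log2 scale, and in each of the 12 panels at least 1 DHA array lies within the vehicle range.

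Complete separation of the groups was seen in few members. In 2 of the 67 members the 3 DHA arrays all lay below the 3 vehicle arrays, and in 0 above, against 8.19% and 7.64% of all tested genes (15.8% in either direction). Rpl37, a zinc-binding protein of the large subunit, measured 7.16, 7.18 and 7.22 with vehicle and 6.79, 7.13 and 7.13 with DHA (difference -0.17, SE 0.096; limma adjusted p = 0.526). Rps20, at the head of the small subunit, measured 5.99, 6.38 and 6.0 with vehicle and 5.96, 5.95 and 5.86 with DHA (difference -0.20, SE 0.11; limma adjusted p = 0.527). The size of the difference rested on DHA replicate 1 in Rpl37 (-0.062 without it) and on vehicle replicate 2 in Rps20 (-0.069 without it). The other arrays lay close together, though still separate. Another probe set of Rps20, nearly as bright, measured 5.66, 6.39 and 5.87 with vehicle and 5.81, 6.04 and 5.99 with DHA. Its groups overlapped, with a difference of -0.026. These genes were picked for their separate groups, with the values in view. Both carry small nucleolar RNAs in their introns. The 19 tested members known as such hosts had a median difference of 0.0018 (10 higher, 9 lower), and the 48 others -0.0029 (23 higher, 25 lower).

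For some members the spread between replicates was larger than any difference between the groups. Rpl7 measured 11.21, 11.74 and 11.04 with vehicle and 11.36, 11.19 and 11.06 with DHA (SD 0.37 and 0.15). Rpl9 measured 11.17, 11.54 and 10.92 with vehicle and 11.34, 11.19 and 10.85 with DHA. Rps13 measured 10.54, 11.02 and 10.47 with vehicle and 10.92, 10.66 and 10.35 with DHA. In all 3 genes vehicle replicate 2 was the highest array and DHA replicate 1 the next, and the differences between groups were -0.13, -0.082 and -0.033 with standard errors of 0.18, 0.18 and 0.19. These genes were chosen after their values were seen, for the spread.

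The groups overlapped in the balance of large and small subunit genes. Over all tested members their difference was below the SD of the DHA arrays and slightly above that of the vehicle arrays. Of the 40 tested genes with the large subunit's prefix 24 were higher and 16 lower (median 0.0087), and of the 27 with the small subunit's prefix 9 were higher and 18 lower (median -0.0073). Of all tested genes, 7954 were higher and 7572 lower. As a measure free of shifts shared by both, the mean log2 value of the large subunit genes minus that of the small subunit genes was taken on each array. It was 0.637, 0.630 and 0.655 with vehicle and 0.643, 0.694 and 0.632 with DHA. Only DHA replicate 2 stood above the vehicle arrays, and the group means of 0.640 ± 0.013 and 0.656 ± 0.033 (SD, n = 3 per group) differed by 0.016. Over the 58 ribosome genes alone this balance differed by 0.018 (0.592 ± 0.022 with vehicle and 0.611 ± 0.043 with DHA).

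**Figure D3:**
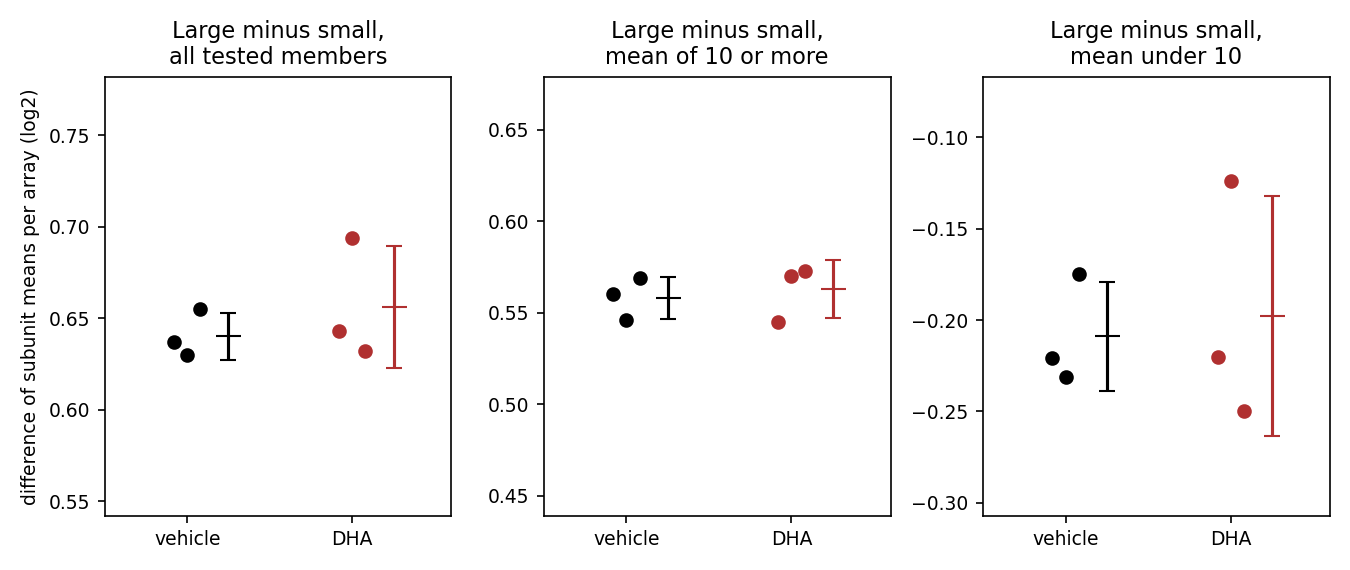
Mean log2 intensity of large subunit genes minus that of small subunit genes on each array (points) with the group mean ± SD (3 arrays per group), for all 67 tested members and for those with a mean of 10 or more and under 10. The vertical axes have equal spans and different offsets, and the groups overlap in each panel.

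The members divided into bright and dim probe sets, and a limit of 10 on the log2 scale was set after seeing the values. Brightness on an array depends on the probes as well as on the RNA, and several dim probe sets belong to genes whose mRNA is abundant in most cells. Of the 36 members at or above 10, 24 were higher and 12 lower after DHA (median 0.014), while all 1611 tested genes this bright had a median of -0.016 with 680 higher. Of the 31 tested members under 10, 9 were higher and 22 lower (median -0.058). The 13915 tested genes under 10 had a median of 0.0054, with 7274 higher and 6641 lower. The mean of these 31 members was 7.10, 7.07 and 7.11 with vehicle and 7.02, 7.02 and 7.01 with DHA, so that the groups did not overlap. The mean of the 36 bright members was 11.95, 11.97 and 11.86 with vehicle and 12.01, 11.93 and 11.88 with DHA, and these groups overlapped. The bright mean minus the dim mean on each array was 4.85, 4.90 and 4.76 with vehicle and 4.99, 4.91 and 4.87 with DHA, a difference of 0.087 with overlapping groups. The bright median rested on single arrays, at -0.00012 without vehicle replicate 3 and -0.0042 without DHA replicate 1, while the dim median lay between -0.069 and -0.036 on leaving out any 1 array. By subunit, 18 of 23 large and 6 of 13 small subunit genes were higher among the bright, and 11 of 17 and 11 of 14 were lower among the dim. The subunit balance differed between the groups by 0.0043 among bright and 0.011 among dim members, with overlapping arrays. What lies behind these differences was not tested.

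The bright members lay mostly on the same side of their own mean on 3 of the 6 arrays. On DHA replicate 1, 33 of the 36 bright members lay above their own mean over 6 arrays, whereas on vehicle replicate 3 only 7 did and on DHA replicate 3 only 10. On vehicle replicates 1 and 2 and DHA replicate 2 the counts were 22, 20 and 16. Of the 31 dim members, 21, 18 and 19 lay above their own mean on the vehicle arrays and 10, 12 and 11 on the DHA arrays. Over all tested genes this share lay between 46.0% and 53.3% on every array.

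**Figure D4:**
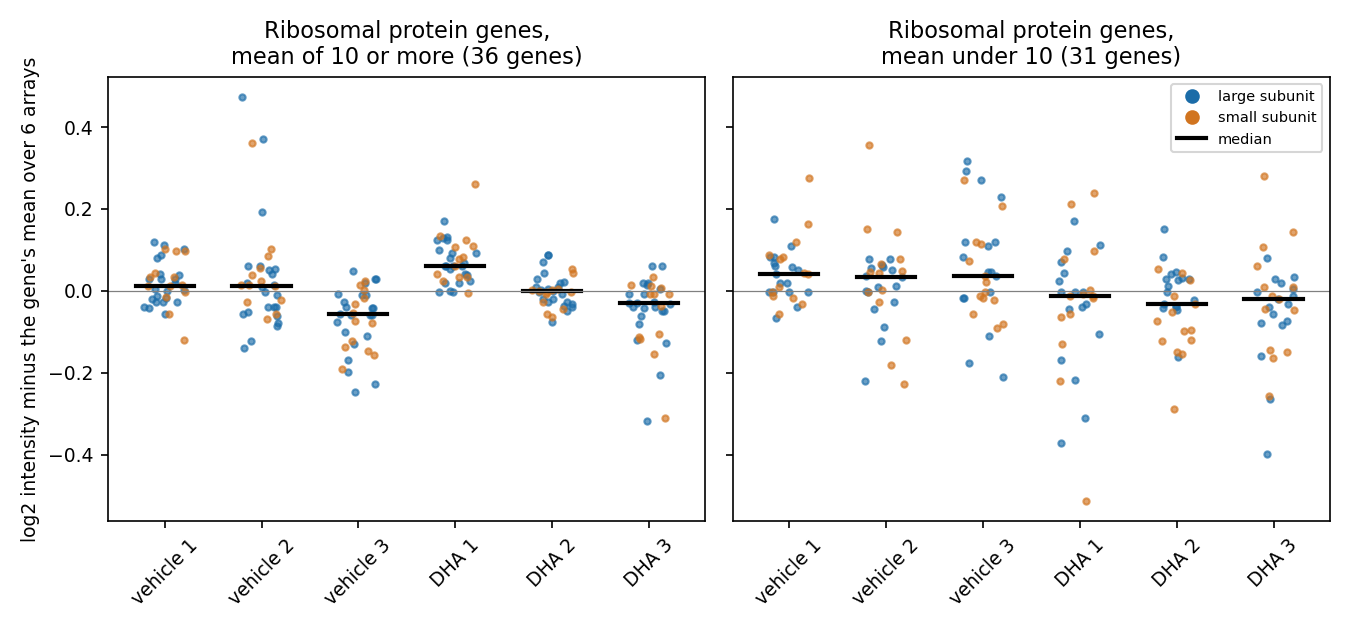
Log2 intensity of each tested ribosomal protein gene minus its own mean over the 6 arrays, by array, for the 36 genes with a mean of 10 or more (left) and the 31 under 10 (right), with the median as a bar and the subunit by colour. Bright genes sit highest on DHA replicate 1 and lowest on vehicle replicate 3, and the medians of dim genes are above 0 on the vehicle arrays and below 0 on the DHA arrays.

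Different probe sets of the same gene often differed in sign. There were 25 members with more than 1 probe set, 7 probe sets repeated the values of another exactly, and 24 genes had probe sets with distinct values. The brightest and the dimmest had the same direction in 12 of these 24 genes, and the dimmest had the lower difference in 10. The gap was widest for Rpl41, the smallest ribosomal protein, whose 4 bright probe sets had differences of 0.0019 to 0.028. Its dim probe set measured 6.55, 6.67 and 6.51 with vehicle and 7.12, 7.10 and 6.70 with DHA, a difference of 0.40 (limma adjusted p = 0.482 over all probe sets). Rpl41, Rpl4, Rpl7a and Rpl3 were picked here for their gaps, with the values in view. For Rpl4, the brightest probe set had a difference of 0.024 and the dimmest 0.35, and for Rpl7a they were 0.039 and 0.22. For Rpl3 the brightest had 0.11, while a middle probe set measured 9.12, 9.15 and 9.48 with vehicle and 8.76, 9.27 and 9.02 with DHA (difference -0.23). When each probe set was tested with limma, 108 member probe sets passed the filter and 0 were called (2 at an unadjusted p under 0.05), against 0.00691% of all 28941. Many ribosomal protein genes have near-identical copies, and a probe set may take up signal from more than 1 of them.

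**Figure D5:**
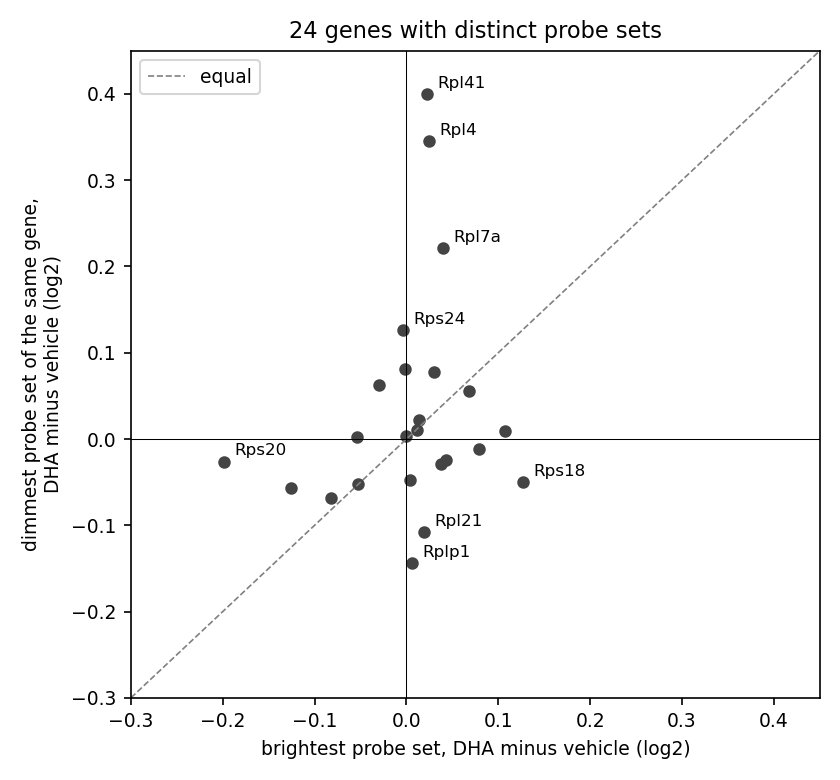
Difference between DHA and vehicle on the log2 scale for the brightest (horizontal) and the dimmest (vertical) probe set of each of the 24 genes with distinct probe sets, with the line of equal values. The points do not follow that line, 12 of 24 genes have the same sign on both axes, and Rpl41 (0.023 and 0.40) lies farthest from it.

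The genes that share a name with a ribosomal protein without being part of the standard ribosome did not pass either. The 9 tested of these 11 had a median difference of -0.0069, with 4 higher and 5 lower. Rps27l, a paralog of Rps27 known as a p53 target, measured 8.44, 8.54 and 8.47 with vehicle and 8.34, 8.45 and 8.14 with DHA (difference -0.17, SE 0.084; limma adjusted p = 0.483), and Rps27 itself had -0.086 (SE 0.060). Rpl22l1, the paralog that Rpl22 represses, had -0.037 (SE 0.12) beside 0.030 for Rpl22 (SE 0.068). Rps4l had 0.11 (SE 0.091) beside -0.0073 for Rps4x, and Rpl39l had -0.059 beside 0.0018 for Rpl39. The muscle paralog Rpl3l, at 4.67 to 4.70 on every array, gave the same value on several arrays and carries no information on a change. Rpl7l1, which acts in ribosome assembly, had 0.022 (SE 0.078), and Rps19bp1, a partner of the deacetylase SIRT1, had -0.058 (SE 0.045). Rpl6l (0.012) and Rps23rg1 (0.054), copies that the prefix took in, were placed in this group, like Rpl32l, after their values were seen.

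Other mRNAs that begin with a TOP tract were measured for comparison. Of 16 tested, 0 were called, 9 were higher and 7 lower, and the median was 0.012. Fau, which encodes a small subunit protein under another name, measured 12.79, 12.79 and 12.74 with vehicle and 12.76, 12.74 and 12.70 with DHA (difference -0.044, SE 0.045). Tpt1, the translationally controlled tumour protein, had the widest difference of the list, 0.28 (SE 0.14; limma adjusted p = 0.483), which rested on DHA replicates 1 and 3 (9.76 and 10.02, against 9.43 for DHA replicate 2 and 9.44 to 9.48 with vehicle).

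Among the genes that control mTORC1 and its hold on TOP mRNAs, 1 of 11 passed, against 0.0902% of all tested genes. Sesn2, a sestrin that inhibits mTORC1, rose from 6.81, 6.51 and 6.28 to 8.51, 8.17 and 8.51 (difference 1.86, SE 0.15; limma adjusted p = 0.0234), and the 3 DHA arrays lay above all vehicle arrays. Its limma adjusted p was 0.0812, 0.239 and 0.116 without vehicle replicates 1, 2 and 3, 0.302, 0.0352 and 0.290 without DHA replicates 1, 2 and 3, and 0.243 without the pair of samples sharing a title code, with differences of 1.74 to 2.0. Eif4ebp1, which encodes the translation repressor 4E-BP1, measured 11.14, 11.03 and 10.96 with vehicle and 11.64, 11.42 and 11.54 with DHA (difference 0.49, SE 0.076; limma adjusted p = 0.0894). It passed in 3 of 16 alternatives, with limma adjusted p-values of 0.0496 with a filter at the 50th percentile, 0.0454 after quantile normalization and 0.0447 with trend and robust moderation. Ddit4, another inhibitor of mTORC1, measured 9.58, 8.93 and 8.83 with vehicle and 10.24, 9.90 and 10.13 with DHA (difference 0.98; limma adjusted p = 0.141). Tsc1 also had separate groups, with a difference of 0.13 (limma adjusted p = 0.307), while Larp1 had 0.031 (SE 0.083). Eif4ebp2 had separate groups in the other direction, with a difference of -0.072 (limma adjusted p = 0.596). Of the 11 genes, 4 had separate groups upward and 1 downward, against 7.64% and 8.19% of all tested genes. This list was drawn up with earlier results of these data known, so its counts cannot be read as an enrichment. Of the assembly partners and chaperones of ribosomal proteins, 0 of 12 were called (5 higher, 7 lower), and of the sensors of stalled or collided ribosomes 0 of 7 (4 higher, 3 lower). Of the genes downstream of free ribosomal proteins, 0 of 3 were called, and the cell cycle inhibitor Cdkn1a measured 9.48, 9.23 and 9.34 with vehicle and 8.99, 9.18 and 9.09 with DHA (difference -0.26, SE 0.081; limma adjusted p = 0.288). Trp53 was not analysed here.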

How the data were processed

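The deposited values are log2 intensities, 1 per probe set and sample, made with RMA and Partek 6.6, per the submitters' processing notes; for settings and genome build the sources used here give nothing. With 3 arrays per group, their number limits the precision. Of 41345 probe sets, 23521 had 1 gene symbol and 1814 several; symbols were updated through Entrez identifiers to RefSeq (GRCm38.p6), which changed no member. For each of 22180 genes the brightest probe set by 6-array mean was used, and those below the 30th percentile of gene means (4.52) were left out, leaving 15526. DHA was compared with vehicle with limma 3.58.1 (R 4.3.3; empirical Bayes, two-sided, Benjamini-Hochberg over all 15526 genes); the procedure was also run on simulated data with known changes. Subunit means and list medians are descriptions without a test. Replicate numbers follow accession order and only name samples. Members and lists were chosen with earlier results of these data known. Values are given for the 6 members with the smallest p in each direction, any called member, members chosen by role and paralogs; any other member is marked as picked with its values in view. The alternatives dropped arrays or used other filters, scalings, probe set rules and variance settings, or a model term for the title code that vehicle replicate 3 and DHA replicate 2 have in common.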

Additional observations from a re-analysis of the deposited data

How the results depend on the processing

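No paired analysis was possible because only 1 title code occurs in both groups and replicate numbers came from accession order. Over 18 alternatives limma called 0 ribosomal protein genes, and the lowest adjusted p of a member lay between 0.136 and 0.612. Dropping any 1 array put the median difference between -0.018 and 0.028, and it was -0.058 for members under 10, a limit set after seeing the data. The balance of large and small subunit ranged from -0.0033 to 0.028. The count of members with separate groups, 2, was 5 to 13 without 1 array, 14 without the pair of samples sharing a title code (fewer samples separate more easily) and 6 after median centring, where the cause was not tested. Dim members had a median of -0.025 with the probe set of highest variance. Ranges on leaving out 1 array that crossed 0 were -0.060 to 0.068 for Rpl7l1, -0.16 to 0.067 for Rpl22l1, -0.020 to 0.078 for Rpl22, -0.046 to 0.039 for Rpl39, -0.037 to 0.034 for Rps4x, -0.069 to 0.11 for Rpl6l, -0.015 to 0.095 for Rps19, -0.054 to 0.050 for Rplp1, -0.17 to 0.14 for Rps13, -0.23 to 0.083 for Rpl9, -0.27 to 0.080 for Rpl7, -0.019 to 0.053 for Rpl41, -0.030 to 0.13 for Rpl27a and -0.034 to 0.084 for Larp1. Signs also turned under median centring for Rpl39 (-0.0012), quantile normalization for Rps4x (0.0050), the mean of probe sets for Rps18 (-0.0078), Rpl3 (-0.039) and Rplp1 (-0.069), the probe set of highest variance for Rpl3 (-0.23), Rplp1 (-0.14), Rps26 (-0.024) and Fau (0.033), array weights for Rps4x (0.0047), Rplp1 (-0.013) and Rps13 (0.042), and without the pair sharing a title code for Rpl7l1 (-0.033), Rpl22l1 (0.041), Rpl6l (-0.042) and Rplp1 (-0.023); the cause was not tested.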

Other observations

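A further 57 probe sets name a ribosomal protein gene together with other genes, often its own copies, and entered no gene comparison. Tested as probe sets, 25 were higher and 32 lower after DHA, with differences from -0.54 to 0.24 and a median of -0.013. None was called (lowest limma adjusted p 0.353).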
